A study of Mus musculus with 7 samples.

Results

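The 8 genes described here belong to the Wnt pathway and comprise the ligand genes Wnt4, Wnt5a and Wnt7a, the receptor gene Fzd1, the genes of the secreted inhibitors Sfrp1, Sfrp2 and Sfrp4, and Lef1, a transcription factor gene. They were chosen with earlier results of these data known and were taken by gene symbol. All probe sets that name them were used, 9 of 12488 on the array (2 for Lef1, 1 for each of the others). All 8 genes were among the 6322 genes of 8251 that passed the filter on low signals, which asked for a signal above the floor explained below on at least 1 array. The 8 genes were above it on 5 to 7 arrays.

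The series measured RNA of mouse uterus on Affymetrix U74Av2 arrays, 1 array for each of 7 pools. The pools were uteri of C57Bl/6 females of 10 to 11 weeks, all of them ovariectomized 7 days before death. On 6 arrays the mice had received 0.1 mg of dihydrotestosterone (DHT), an androgen that cannot be aromatized to estrogen, 1, 3, 6, 12, 18 or 24 h before death. The lone control pool had received the vehicle 24 h before death, so a vehicle of the same hour exists only for the 24 h array. The labels name 10 mice without saying whether that is the size of each pool, and the design text lists 0.5 h and no 18 h, while the titles list 18 h. Whole uterus was taken, and the measured markers of uterine epithelium (12 of 12), stroma (10 of 10) and smooth muscle (9 of 9) passed the filter.

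Wnt ligands are secreted glycoproteins that bind Frizzled receptors. In the canonical branch this binding keeps beta-catenin from being degraded, and beta-catenin then joins TCF and LEF proteins at target genes. Secreted Frizzled-related proteins, the products of the Sfrp genes, carry a Frizzled-like domain and can bind Wnt ligands outside the cell. In the mouse uterus Wnt7a is known from the luminal epithelium, Wnt5a from the stroma, and Wnt4 from the stroma that decidualizes in pregnancy.

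Of the 8 genes, 2 differed at least 2-fold from vehicle at 1 or more times. Wnt4 was 3.68-fold higher at 3 h and 3.11-fold higher at 6 h, and at least 2.03-fold lower at 18 and 24 h. Sfrp4 was 2.29-fold lower at 18 h. Among all genes tested, 7.34 percent differed at least 2-fold from vehicle at 1 or more times. A gene was counted where the ratio was at least 2 and the higher signal at least 291.8, which is 2 times the floor. The vehicle signal of Wnt4, 295.8, was just above this limit, and its signals at 18 and 24 h were under the floor. These are descriptions of single arrays and carry no test.

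Values are signals on a linear scale. Ratios were formed from signals floored at 145.9 (the 40th percentile over all arrays), so a ratio to a value at the floor is a bound. Counts of arrays above or below others compared the deposited signals, also those under the floor. Every array had a trimmed mean of 499.9, and between 39.3 and 40.7 percent of its values lay under the floor. The log2 ratio of the 3 prime to the 5 prime control signal, a measure of RNA integrity, lay between -0.27 and -0.17 for Gapdh and between 0.04 and 0.26 for actin. The number of genes whose signal differed at least 2-fold from that of each remaining array was 9 for the 3 h array and 2 to 5 for the other arrays.

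The promoter of Wnt4 is shown because this gene had the widest range of the set, and that of Sfrp2 because its signal was below vehicle on all 6 DHT arrays. Both sequences are from RefSeq (GRCm38.p6) and hold the 250 bases before the annotated start, on the plus strand. Wnt4 lies at chr4:137277385-137277634 and Sfrp2 at chr3:83766071-83766320. Capitals mark matches to any of 4 motifs, searched on both strands: AGAACA (a single arm of the paired element of androgen and glucocorticoid receptors), CTTTGA (the core bound by TCF and LEF), CCGCCC (the GC box) and TATAAA.
Wnt4: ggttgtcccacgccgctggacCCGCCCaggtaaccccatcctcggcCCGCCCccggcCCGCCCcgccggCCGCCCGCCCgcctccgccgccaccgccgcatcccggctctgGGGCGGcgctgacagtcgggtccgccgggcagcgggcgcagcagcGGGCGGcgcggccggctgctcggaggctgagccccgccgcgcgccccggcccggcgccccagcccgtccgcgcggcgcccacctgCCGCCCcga
Sfrp2: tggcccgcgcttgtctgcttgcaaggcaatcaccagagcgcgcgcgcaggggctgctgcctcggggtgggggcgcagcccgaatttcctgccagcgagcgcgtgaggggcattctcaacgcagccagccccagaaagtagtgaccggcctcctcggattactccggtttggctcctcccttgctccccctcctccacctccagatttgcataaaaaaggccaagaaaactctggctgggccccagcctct

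The Wnt4 window held 8 matches to CCGCCC, of which 2 overlapped each other, and none to the other motifs. Its share of G and C was 85.2 percent, against 63.6 percent in the Sfrp2 window, which matched none of the 4 motifs. Of 32851 promoter windows of this length, 16.1 percent held AGAACA, 13.8 percent CTTTGA, 32.7 percent CCGCCC and 12.4 percent TATAAA. The Wnt7a window held 6 matches to CCGCCC, and the Fzd1 window 1 match each to CTTTGA and TATAAA. Of 4 Lef1 windows, for 4 annotated starts, 3 held CCGCCC, 2 held AGAACA, and 1 held CTTTGA (at 2 places) and TATAAA. The Lef1 windows at chr3:131110047-131110296 and chr3:131110073-131110322 overlap, and their CCGCCC match is the same site. A match in such a window is a description of letters and not a bound site. Promoter windows were matched for 5 of the 8 genes; Wnt5a, Sfrp1 and Sfrp4 are named only.

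Wnt4 encodes a ligand that uterine stroma needs for decidualization. Its signal was 295.8 on vehicle and 359.1, 1089.4, 920.6, 253.9, 134.7 and 60.4 at 1, 3, 6, 12, 18 and 24 h after DHT. All 3 arrays up to 6 h were above vehicle and all 3 from 12 h on were below it, a pattern shared by 1.01 percent of genes tested. On the log2 scale its ratio to vehicle was 0.28, 1.88, 1.64 and -0.22 at 1 to 12 h, and no higher than -1.02 at 18 and 24 h, where both signals were under the floor. Fewer cells of a type and less RNA per cell cannot be told apart in such pools.

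At 3 h the Wnt4 ratio ranked 8 and at 6 h 11 from the top of 6322 genes. At 3 h 1.23 percent of genes were at least 2-fold higher and 0.759 percent lower, and at 6 h 1.28 percent were higher and 1.14 percent lower. Wnt4 was the only 1 of the 8 genes among them, on the higher side at both times. Between 6 and 12 h its floored log2 signal dropped by 1.86, the second largest drop of 6322 genes over that interval (rank 2). At 18 h 1.31 percent of genes were at least 2-fold higher and 1.03 percent lower, with Wnt4 and Sfrp4 on the lower side. At 24 h 0.933 percent were higher and 0.823 percent lower, with Wnt4 on the lower side. None of the 8 genes was 2-fold from vehicle at 1 h, where 0.475 percent of genes were higher and 0.506 percent lower, or at 12 h, where 1.83 percent were higher and 1.2 percent lower. No vehicle pool was taken 3 or 6 h after injection, so effects of DHT and of the injection on the high Wnt4 values cannot be told apart. At 24 h, where vehicle and DHT were taken at the same hour, Wnt4 had a signal of 60.4 with DHT, against 295.8 with vehicle.

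**Figure D1:**
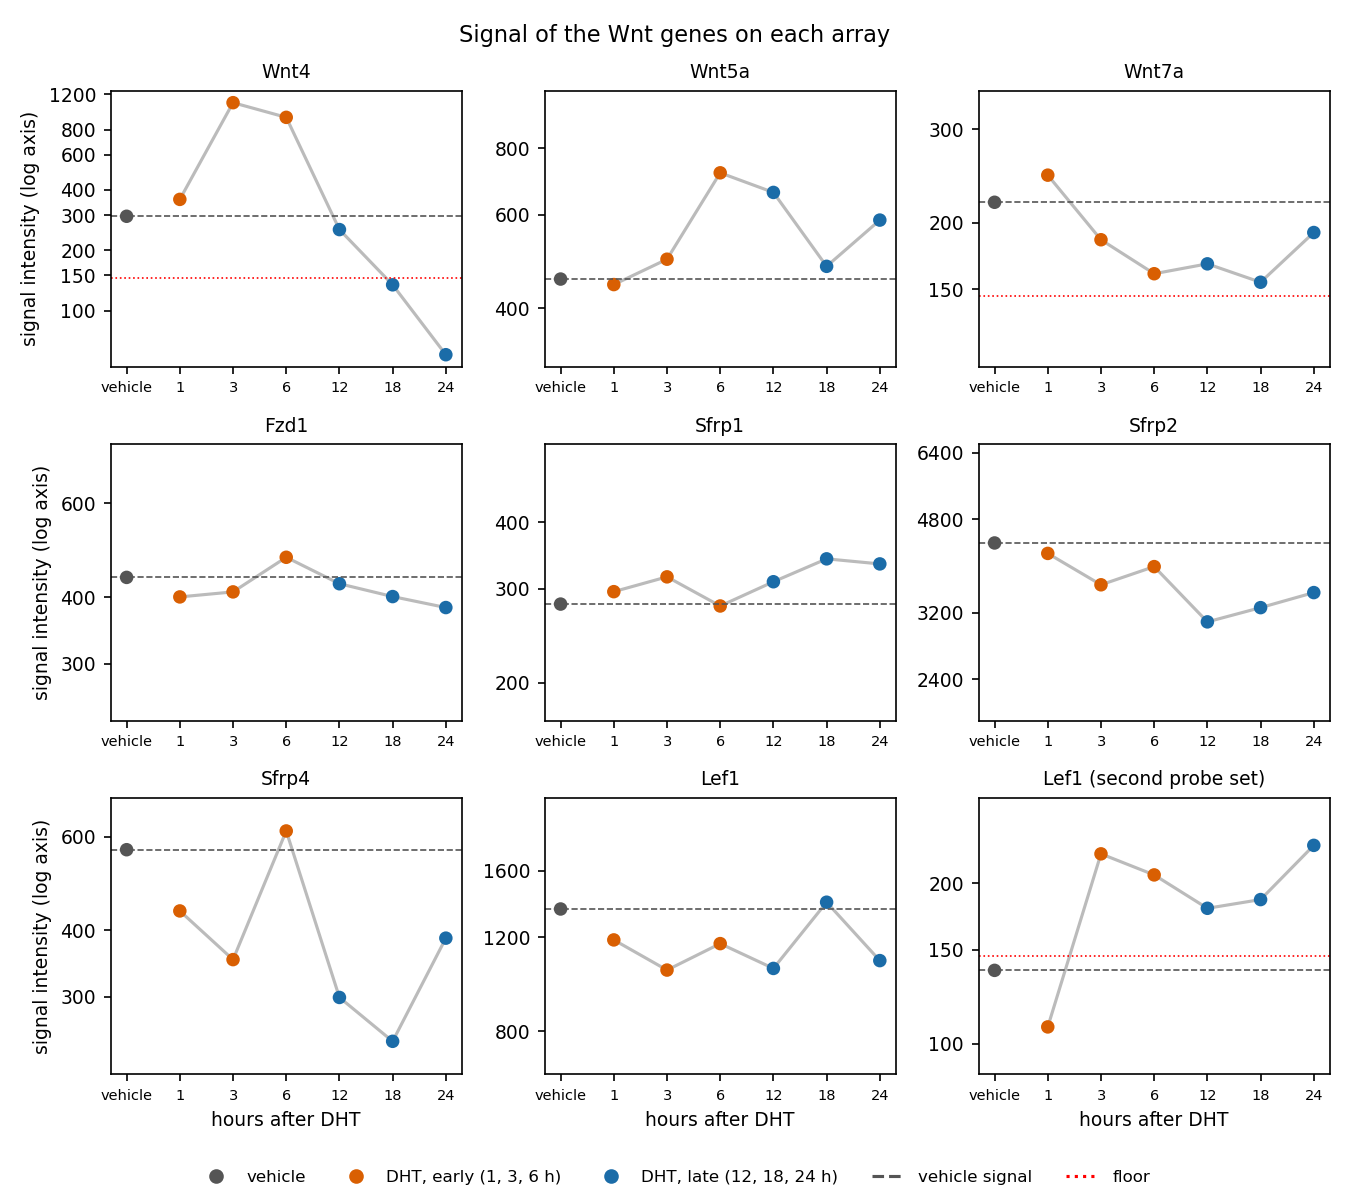
Signal intensity (log axis, 1 point per array) of the 8 Wnt genes and of the second Lef1 probe set, on vehicle and by hours after DHT. The dashed line marks the vehicle signal and the dotted line the floor of 145.9; Wnt4 runs from 1089.4 at 3 h to 60.4 at 24 h, while Fzd1 stays between 382.4 and 475.3.

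The other ligand genes had narrower ranges. Wnt5a encodes a ligand that mostly acts without beta-catenin. Its signal was 454.1 on vehicle and 443.4, 494.8, 719.1, 660.6, 479.8 and 586.1 at 1 to 24 h. It was above vehicle on 5 of 6 DHT arrays, most at 6 h (1.58-fold) and 12 h (1.45-fold), which is short of 2-fold. Wnt7a encodes an epithelial ligand that patterns the female tract. Its signal was 218.5 on vehicle and 245.7, 185.8, 160.4, 167.4, 154.6 and 191.7 at 1 to 24 h. It was thus below vehicle from 3 h on, but all its values lay close to the floor, which limits how far a drop can be seen. Wnt4 and Wnt5a were both above vehicle at 3 and 6 h, and at 12 h only Wnt5a was.

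Fzd1 encodes a Wnt receptor. Its signal was 435.7 on vehicle and 400.4, 409.2, 475.3, 423.9, 401.0 and 382.4 at 1 to 24 h, a range of 1.24-fold over the 7 arrays. Its highest value was at 6 h, as for Wnt5a and Sfrp4, and the other 5 DHT arrays were slightly below vehicle.

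The secreted inhibitors did not share a course. Sfrp2 had signals of 4328.2 on vehicle and 4137.0, 3611.7, 3907.2, 3076.4, 3271.8 and 3491.9 at 1 to 24 h. All 6 DHT arrays were below vehicle, as for 16.3 percent of genes, and the 3 late arrays were below the 3 early ones. The largest distance was at 12 h, where vehicle was 1.41-fold higher. Sfrp4 had signals of 566.8 on vehicle and 434.9, 352.3, 614.7, 299.1, 247.4 and 386.6 at 1 to 24 h. It was below vehicle on every DHT array except that of 6 h, and at 18 h its log2 ratio of -1.20 ranked 30 from the bottom of 6322 genes. Sfrp1 had signals of 280.8 on vehicle and 296.3, 315.9, 278.5, 309.3, 341.5 and 334.1 at 1 to 24 h. It was above vehicle on 5 of 6 DHT arrays, by at most 1.22-fold, at 18 h.

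Lef1 encodes a nuclear partner of beta-catenin and is itself a target of the pathway. On its brighter probe set the signal was 1356.9 on vehicle and 1187.0, 1041.8, 1168.1, 1049.2, 1397.3 and 1085.3 at 1 to 24 h, below vehicle on 5 of 6 DHT arrays. The dimmer probe set, designed from the same sequence record, gave 137.3 on vehicle and 107.5, 227.3, 207.5, 179.6, 186.5 and 235.8 at 1 to 24 h, above vehicle on 5 of 6. The probe sets thus disagreed in direction at 3, 6, 12 and 24 h, and on vehicle and at 1 h the dimmer one lay under the floor. No direction is given for Lef1.

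**Figure D2:**
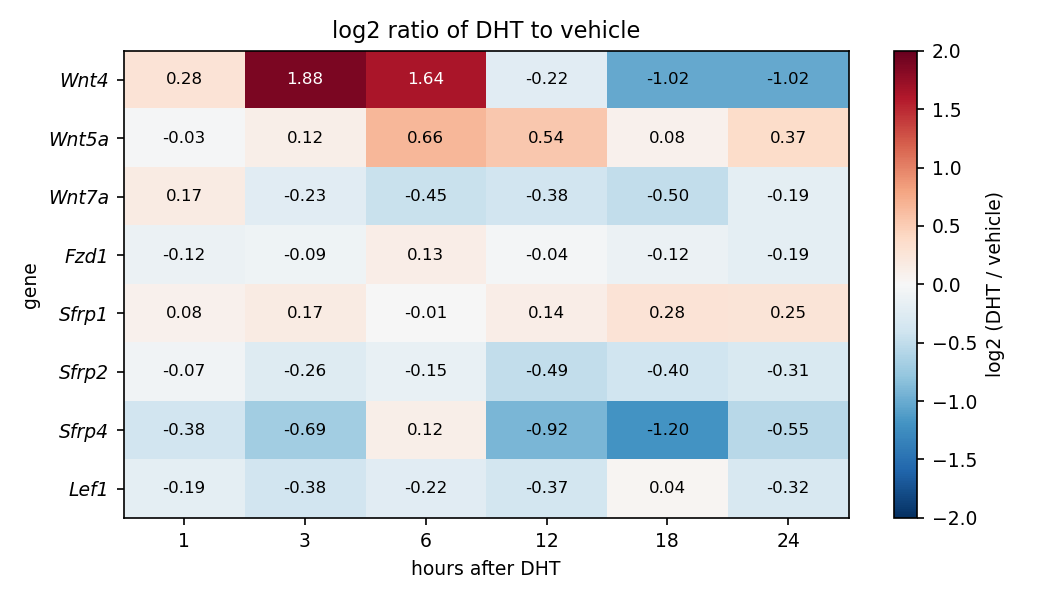
Log2 ratio of DHT to vehicle for the 8 genes (rows) by hours after DHT (columns), from signals raised to the floor, with the value in each cell. Red is above and blue below vehicle; the strongest colours are those of Wnt4 at 3 h (1.88) and 6 h (1.64), and Sfrp4 is lowest at 18 h (-1.20).

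To compare phases with a test, the arrays at 1, 3 and 6 h were joined as early and those at 12, 18 and 24 h as late (3 arrays each), and limma was fitted over 8421 probe sets with Benjamini-Hochberg adjustment. Arrays of unlike times within a phase thus supply the spread, which the fit also applies to the single vehicle array. None of the 8 genes passed an adjusted p of 0.05 in any of the 3 contrasts. The fit called 0.0 percent of all probe sets late against early (863 had an unadjusted p under 0.05), 0.273 percent early against vehicle and 0.309 percent late against vehicle. With a stricter filter, which asked for a mean signal above the floor, these counts were 15, 0 and 0 probe sets of 7473. An unadjusted p under 0.05 was found for Wnt4 and Sfrp2 late against early, where 10.2 percent of probe sets had one, and for Sfrp2 late against vehicle, where 11.7 percent had one. Early against vehicle 6.33 percent of probe sets and 0 of the 8 genes had one.

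For Wnt4 the mean log2 signal was 7.46 ± 0.46 in the late phase and 9.47 ± 0.86 in the early phase (SD, n = 3 each), with no overlap between the phases. The difference was -2.02 ± 0.48 SE (limma, unadjusted p = 0.00656, adjusted p = 0.295), and because 2 late arrays lay at the floor its true size may be larger. The floor also gave these 2 arrays the same value, so the late SD is too small, and the SE and p may be too small as well. The difference moved with the floor. It was -2.48 with the floor at the 20th percentile (adjusted p = 0.385 in limma) and -0.99 at the 60th (adjusted p = 0.475). An exact permutation of 3 against 3 arrays cannot give a two-sided p below 0.10. Against vehicle Wnt4 differed by 1.27 ± 0.68 SE early (adjusted p = 0.893 in limma) and by -0.75 ± 0.68 SE late (adjusted p = 0.710).

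For Sfrp2 the mean log2 signal was 11.68 ± 0.09 in the late phase and 11.92 ± 0.10 in the early phase (SD, n = 3 each). The difference of -0.24 ± 0.08 SE had an adjusted p = 0.410 in limma, and that of late against vehicle was -0.40 ± 0.11 SE (adjusted p = 0.309). Late signals below all early ones were found for 2 of the 8 genes, Wnt4 and Sfrp2, and for 7.67 percent of all genes. Sfrp4 differed by -0.57 ± 0.27 SE late against early (adjusted p = 0.532 in limma) and by -0.89 ± 0.38 SE late against vehicle (adjusted p = 0.454), and its phases overlapped. For the other 5 genes the late-against-early difference lay between -0.19 (Wnt7a) and 0.15 (Sfrp1), with adjusted p of 0.715 or more in limma. The median over the 8 genes was -0.14, and over all genes tested 0.00.

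**Figure D3:**
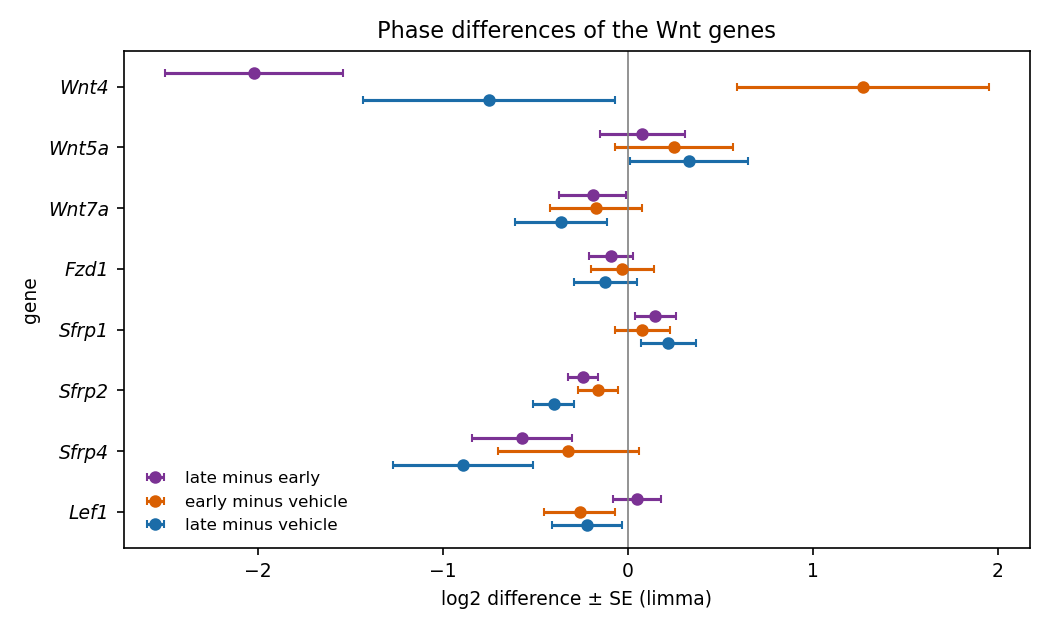
Log2 differences between phases (x axis, points with SE bars from limma) for the 8 genes, as late minus early, early minus vehicle and late minus vehicle. Wnt4 lies at -2.02 for late minus early and Sfrp2 has the shortest bars (0.08 SE for late minus early); no point passed the adjusted threshold.

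Smooth muscle markers had higher signals on the same late arrays. The summed signal of 9 smooth muscle genes (of 10 listed, all 9 past the filter) was 50693 to 67015 late, 39015 to 41023 early and 42718 on vehicle, and 9 of 9 were higher on all late than on all early arrays, against 9.03 percent of all genes. The 10 stromal fibroblast genes summed to 63231 to 80122 late, 58149 to 59147 early and 56570 on vehicle. Of these 10, the collagen genes Col1a1, Col1a2 and Col3a1 and the gene Hoxa10 were higher on all late than on all early arrays, while Fbln1 and Thy1 were lower. The 12 epithelial genes summed to 13326 to 15531 late, 13257 to 14688 early and 14166 on vehicle. The 8 endothelial genes summed to 4708 to 5567 late, 5412 to 6053 early and 5604 on vehicle. Leukocyte genes (11) summed to 9957 to 11325 late, 11173 to 12422 early and 12874 on vehicle, with Ptprc and Cd3e at the floor on all arrays. Cd74 had the highest signal of the 11, 5848.9 on vehicle and 3748.8 to 4296.3 late. Of the 9 leukocyte genes past the filter 2, Cd74 and Laptm5, were lower on all late than on all early arrays, and 0 were higher. The shares over all genes were 7.67 and 9.03 percent. Adipocyte genes (5) summed to 3104 to 3908 late, 3868 to 4947 early and 4768 on vehicle. These 5 did not move together. Adipoq, Retn and Cidec were below vehicle on all 6 DHT arrays, Fabp4 on all except that of 12 h, and Lep was above it on all 6. Of 6 ovary genes Inha, Amh, Cyp11a1 and Zp3 were at the floor on all arrays, and the sums were 571 to 775 late, 712 to 802 early and 795 on vehicle. The part of these shifts in the late Wnt4, Sfrp2 and Sfrp4 values was not tested.

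Beyond the 8 genes, 71 of 105 listed genes of the pathway were on the array and 52 passed the filter. Of these 52, 47 also had a mean signal above the floor; Lgr5, Rspo1, Tle4, Wnt11 and Wnt3 did not. None passed limma in either direction in any of the 3 contrasts. At least 2-fold from vehicle at 1 or more times were 4 of the 52, beside 7.34 percent of all genes. Late signals below all early ones were seen for 15 of 52, beside 7.67 percent of all genes, and late signals above all early ones for 3 of 52, beside 9.03 percent. The 15 include Lgr5, whose late signals were all under the floor. The median late-minus-early difference of the 52 genes was -0.11, beside 0.00 over all genes. The lists were chosen with earlier results of these data known, so these shares describe the lists and are not a test of the pathway.

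Among the other ligands 11 genes were measured and 6 passed the filter, while Wnt2b, Wnt3a, Wnt7b, Wnt8a and Wnt10b were at the floor on all 7 arrays. Wnt5b, which encodes a close relative of the Wnt5a ligand, had a signal of 365.7 on vehicle and 295.1, 341.5, 286.6, 205.5, 168.8 and 202.4 at 1 to 24 h. It was below vehicle on all 6 DHT arrays, 2.17-fold at 18 h, and all late values were below all early ones. By limma, late minus early came to -0.68 ± 0.13 SE on the log2 scale, with an adjusted p of 0.221. Wnt5b and Wnt5a thus lay on opposite sides of vehicle on 5 of 6 DHT arrays.

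Receptor genes other than Fzd1 numbered 9 past the filter, of which 0 were 2-fold from vehicle at any time. The median late-minus-early difference of these receptor genes was -0.14, beside 0.00 over all genes. Of the other secreted inhibitors 2 of 5 measured passed the filter, and Dkk1, Frzb and Cer1 were at the floor on all arrays. Dkk3, a member of the Dickkopf family chosen here after its values were seen, had a signal of 1545.0 on vehicle and 1446.4, 1703.2, 1340.4, 1095.7, 961.1 and 1071.1 at 1 to 24 h. All late values of Dkk3 were below all early ones, with a difference of -0.52 ± 0.11 SE (adjusted p = 0.268 in limma). R-spondins and their receptors, which amplify Wnt signals, had 2 genes past the filter. Rspo1 was above the floor on 4 of 7 arrays, and Lgr5 on 2 of 7, that of vehicle (190.0) and that of 6 h (165.7).

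Genes of Wnt secretion and of the cytoplasmic transducers had 12 members past the filter, 0 of them 2-fold from vehicle. Their median late-minus-early difference was -0.14, beside 0.00 over all genes. The gene of beta-catenin, Ctnnb1, also chosen after its values were seen, had signals between 4889.3 and 5886.0 over the 7 arrays. Apc, whose product helps to degrade beta-catenin and which was chosen after its values were seen, had a signal of 398.9 on vehicle and 321.5, 385.3, 376.8, 257.8, 266.2 and 201.9 at 1 to 24 h. By limma, late minus early came to -0.58 ± 0.16 SE, with an adjusted p of 0.336.

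Among TCF factors and cofactors 1 of 12 genes was 2-fold from vehicle. This was Ruvbl1, an ATPase gene of chromatin complexes, at 1687.4 on vehicle and 1428.9, 1233.6, 882.2, 831.5, 1483.5 and 1053.1 at 1 to 24 h. Of the known beta-catenin targets 9 of 15 measured passed the filter and 2 were 2-fold from vehicle. Of these 9, 1 was above vehicle on all 6 DHT arrays and 2 were below it on all 6, beside 15.2 and 16.3 percent of all genes. Axin2, a feedback inhibitor that is widely used as a readout of the canonical branch, had a signal of 384.6 on vehicle and 412.7, 624.8, 339.7, 299.1, 329.9 and 189.8 at 1 to 24 h. It was highest at 3 h (1.62-fold) and 2.03-fold lower than vehicle at 24 h. At 6 h Axin2 was 1.13-fold lower than vehicle. By limma, late minus early came to -0.74 ± 0.31 SE on the log2 scale, with an adjusted p of 0.508. Jun, also an immediate early gene, had a signal of 810.9 on vehicle and 324.4 at 18 h, its lowest, and was not lower than 560.2 on the other arrays.

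**Figure D4:**
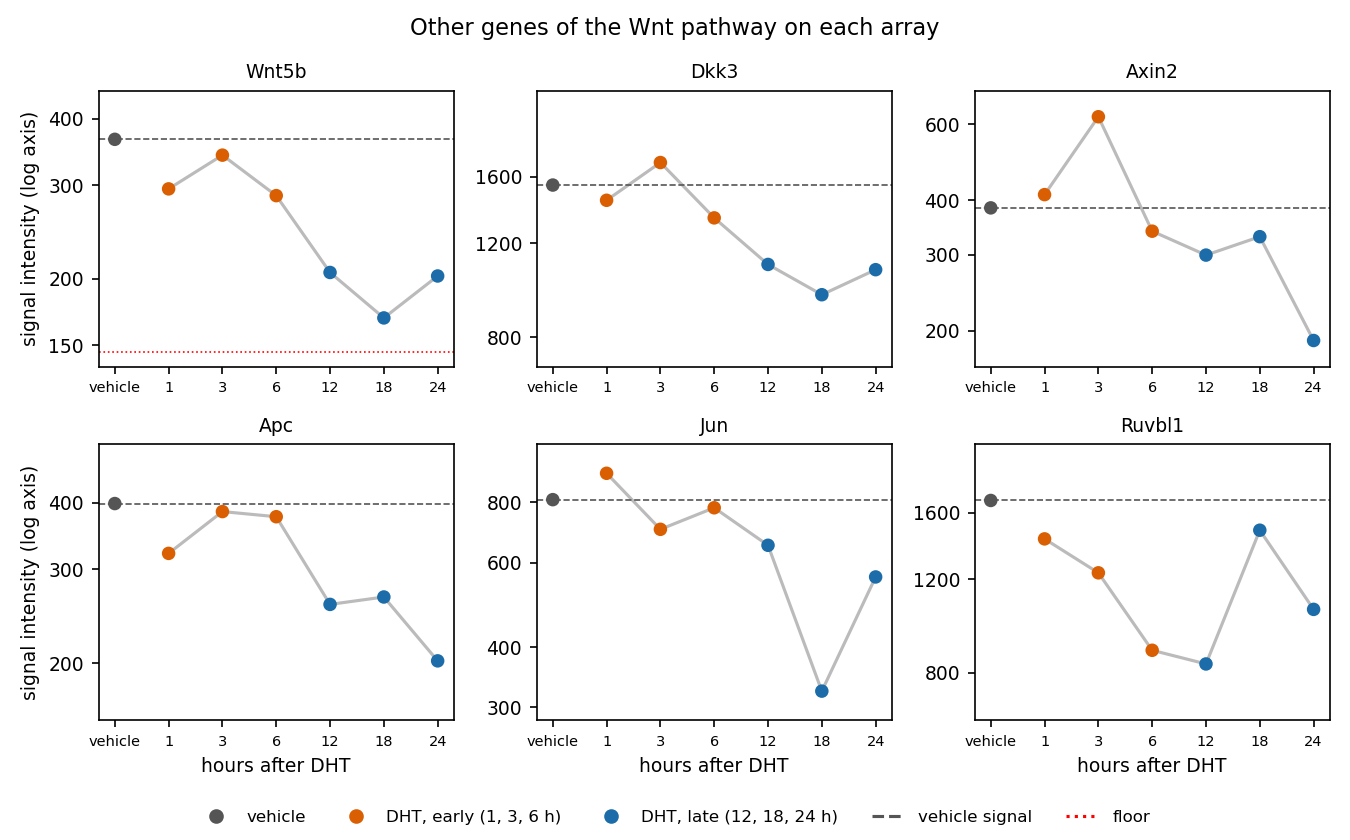
Signal intensity (log axis, 1 point per array) of 6 other genes of the pathway, on vehicle and by hours after DHT, with the dashed line at the vehicle signal. Dkk3 and Apc were chosen after their values were seen; late points lie below early points for 5 of these 6 genes, against 15 of 52 in the pathway lists and 7.67 percent of all genes, and Ruvbl1 is lowest at 12 h (831.5).

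Genes with the most similar course were sought for Wnt4 and Sfrp4, the 2 genes of the set with a range of at least 2-fold, among 754 other genes with such a range. The likeness is the Pearson correlation of log2 signals over the same 7 arrays, which these genes share. For Wnt4 they were Klf4 (r = 0.953), a zinc finger factor gene, Snai1 (r = 0.941), which encodes a repressor of E-cadherin, and Cebpb (r = 0.936), the gene of a factor of decidualization. Klf4 had a signal of 1064.9 on vehicle and 1264.1, 1868.5, 1424.9, 993.8, 913.5 and 938.5 at 1 to 24 h. Like Wnt4 it was highest at 3 h, and all 3 late values were below vehicle. For Sfrp4 they were Kcnj8 (r = 0.933), a potassium channel gene of vessel walls, Phtf1 (r = 0.919), and Cdkn1c (r = 0.907), a cell cycle inhibitor gene. Kcnj8 had a signal of 814.2 on vehicle and 560.0, 543.0, 653.7, 360.6, 281.3 and 483.2 at 1 to 24 h. It was highest on vehicle, whereas Sfrp4 was highest at 6 h, and both were lowest at 18 h.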

How the data were processed

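RNA of 7 pools of whole uterus was measured on 7 arrays, 1 per pool, with no replicates. Each deposited value is a linear signal intensity, computed by the authors with MAS5 per the submitters' processing notes; its version is not given in the sources used here. The deposited scaling (equal trimmed means of the central 2 to 98 percent) was kept. Of 12422 probe sets other than 66 controls, 10833 named 1 gene, 396 several and 1193 none; symbols were updated through gene identifiers to GRCm38.p6 where possible (10817). Signals were raised to the 40th percentile, log2 was taken, and probe sets with a floored mean above the floor, so with at least 1 array above it, were tested. Where a gene had several probe sets, the brightest stood for it. limma 3.58.1 (R 4.3.3) used lmFit and eBayes with a variance trend on all 7 arrays (4 residual degrees of freedom), with two-sided tests. It was run on simulated data with normal noise and no floor, so that check does not cover values tied at the floor. Nothing in the labels shows repeat pools, so p-values measure the spread between times within a phase. The number of arrays limits the precision of every value.

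Named beyond the 8 genes were pathway genes that were 2-fold from vehicle at any time or called by limma, and the 3 genes most correlated with each of the 8 that had a range of at least 2-fold. Dkk3, Apc and Ctnnb1 fall outside this rule and were chosen after their values were seen, as were marker genes named singly. Also outside it, some pathway genes were named for low signals, at the floor on all arrays or with a mean signal not above it. The 8 genes and all lists were chosen with earlier results of these data known. Alternatives changed the floor, scaling, probe set rule, filter (a stricter filter on the mean signal was chosen after seeing the data), variance trend, baseline, fold threshold and set of arrays.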

Additional observations from a re-analysis of the deposited data

Results flagged for a closer look

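Wnt4 was above the single vehicle array on all 3 early arrays and below it on all 3 late arrays, as were 1.01 percent of genes tested. The distance was small at 1 h (1.21-fold of vehicle) and at 12 h (0.858-fold). Its mean log2 difference from vehicle was 1.27 early and -0.75 late, the latter 0.00 with the floor at the 60th percentile. Late against early does not use vehicle and so does not test on which side of vehicle Wnt4 lay. Its late-minus-early log2 difference was -2.02, with an adjusted p of 0.295 in limma (0.0848 to 0.604 over the alternatives), above the threshold. Without the 3 h array the difference was -1.71 (adjusted p = 0.604 in limma), and Wnt4 was still 3.11-fold above vehicle at 6 h.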

How the results depend on the processing

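No member gene was called by limma in any of the 3 contrasts under any alternative run, which were 7 settings and the leaving out of each DHT array. The count of 2 genes at least 2-fold from vehicle was 1 (Wnt4) with the floor at the 60th percentile, 1 (Wnt4) at 3-fold, and 3 at 1.5-fold, where Wnt5a was added. Leaving out 1 DHT array in turn it was 1 to 2, and it was 1 (Wnt4) without the 18 h array. With the floor at the 60th percentile the Wnt4 ratio was 0.00 at 18 and 24 h, since vehicle itself was then at the floor, and Wnt7a and Sfrp1 were not tested; the late-against-vehicle difference of Wnt4, -0.75 as reported, was then 0.00 and had no direction. With the floor at the 20th percentile the 24 h ratio of Wnt4 was -2.29. Averaging both probe sets turned Lef1 to 0.06 early and 0.12 late against vehicle. Leaving out 1 array also turned differences close to 0: Fzd1 early against vehicle was 0.02 without 1 h and 0.00 without 3 h (range -0.11 to 0.02); Wnt5a late against early was -0.06 without 1 h and -0.03 without 12 h (range -0.06 to 0.28); Lef1 late against early was -0.01 without 3 h and -0.08 without 18 h (range -0.08 to 0.12). The cause of these turns was not tested. The other 297 of 306 phase differences kept their direction, and Wnt4 late against early lay between -2.51 and -0.99 (adjusted p between 0.0848 and 0.604), with -0.99 at the 60th percentile floor. Among all probe sets, calls without the filter on low signals numbered 121 early and 137 late against vehicle, and without the variance trend 0 and 0, against 23 and 26 as reported. They numbered 14 and 15 with quantile normalization and 31 and 42 with the floor at the 60th percentile. They numbered 55 and 73 without 3 h, 8 and 10 without 6 h, 11 and 0 without 12 h, and 12 and 0 without 18 h. Late against early had 0 calls, and 1 without 6 h. A filter that asked for a mean signal above the floor, chosen after seeing the data, left 7473 probe sets and 15 calls late against early, with 0 early and 0 late against vehicle (344 and 800 had an unadjusted p under 0.05); the adjusted p of Wnt4 late against early was then 0.0848. The cause was not tested. No paired analysis was possible because each time had 1 array.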
